A study of Mus musculus with 8 samples.

Results

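Core circadian clock genes were followed in RNA-seq of livers from 4 LWT and 4 LΔRbfox2 mice fed a control diet (CD). The 10 genes were taken by symbol from the annotation of GRCm38 and comprise the positive arm of the clock (Arntl, Clock and Npas2), the negative arm (Per1, Per2, Per3, Cry1, Cry2 and Nr1d1) and the output gene Dbp. They are 10 of 46078 gene identifiers in the deposited counts, and all 10 were among the 13856 genes with enough counts to be tested. The mice were male, were put on the diet from 8 weeks of age and were fasted for 16 h before the livers were frozen. The labels call the diet both control and chow and give 12 weeks on it, where the methods of the study give a longer range. LΔRbfox2 mice carried Albumin-cre, which is active in hepatocytes, and floxed Rbfox2 alleles (Rbfox2 loxP/loxP), so that other liver cells keep the gene. LWT mice are named wild-type in the labels and, by the methods of the study, carried the floxed alleles without the Cre. Each library came from 1 liver. Animals were kept under a 12 h light/dark cycle, and the hour at which each liver was taken is not given in the sources used here.

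The mammalian clock is a feedback loop of transcription. BMAL1 (the product of Arntl) pairs with CLOCK or its relative NPAS2 and activates genes through E-box elements, among them the Period (Per) and Cryptochrome (Cry) genes, whose proteins then repress that activation, and Nr1d1 (REV-ERBα), which represses Arntl. In liver, mRNAs of Arntl and of Dbp are known to peak at opposite phases of the day, and a single liver gives the level at 1 moment only.

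Total counts ranged from 37482458 to 56177588 per liver, and 3 counts corresponded to between 0.053 and 0.080 CPM (counts scaled to library size with TMM factors), a floor that covers counting error only. Rbfox2 was at 14.3 ± 3.96 CPM (SD, n = 4) in LWT and at 4.03 ± 1.68 CPM (SD, n = 4) in LΔRbfox2 livers, with counts of 518 to 794 and of 77 to 390, and its log2 fold change was −1.82 (edgeR adjusted P = 0.504). TMM factors were 0.724 and 0.776 for LΔRbfox2 replicates 3 and 4 and between 1.02 and 1.14 for the other 6 livers. The hepatocyte markers examined (5 genes) summed to between 45300 and 68000 CPM in LWT and between 50000 and 74800 CPM in LΔRbfox2 livers. The Kupffer cell markers (5 genes) summed to between 54.2 and 94.5 CPM in LWT and between 30.3 and 63.7 CPM in LΔRbfox2 livers. Of the 5 markers of pancreas, muscle and fat, 4 (Pnlip, Myh2, Acta1 and Adipoq) had at most 3 counts in every liver. The remaining marker, Cela1, had 135 to 232 counts in LWT and 172 to 318 counts in LΔRbfox2 livers. In whole liver, fewer cells of a type and less RNA per cell cannot be told apart, and the part of cell composition in the values that follow was not tested.

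Compared per kilobase of exon, the clock mRNAs differed widely in level. Nr1d1 had the highest mean of the 8 livers, at 16.1 ± 3.78 CPM per kilobase (SD, n = 8), and Dbp followed at 11.4 ± 7.39 CPM per kilobase, lying under Nr1d1 in 6 of 8 livers. Per1 (3.74 ± 1.97 CPM per kilobase) was under Dbp in 8 of 8 livers, and Cry2 (2.45 ± 1.22 CPM per kilobase) was under Per1 in 8 of 8. Cry2 and Clock (2.21 ± 0.40 CPM per kilobase) could not be ordered, as Clock was the lower in only 3 of 8 livers. Per2 (1.26 ± 0.82 CPM per kilobase) was under Clock in 7 of 8 livers, while Per2 and Cry1 (1.10 ± 0.50 CPM per kilobase) changed places, Cry1 being lower in 5 of 8. Per3 (0.60 ± 0.64 CPM per kilobase) and Arntl (0.56 ± 0.34 CPM per kilobase) did not keep an order either, with Arntl lower in 3 of 8 livers. Npas2, the relative of CLOCK best known from brain, was under Arntl in 8 of 8 livers, at 0.076 ± 0.034 CPM per kilobase.

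No clock gene passed the threshold between LΔRbfox2 and LWT livers in the test across all genes. With edgeR's quasi-likelihood test, 0 of the 10 had a Benjamini–Hochberg adjusted P of at most 0.05, where 0% of all 13856 genes did, and their adjusted P values ran from 0.515 to 0.802. At an unadjusted P under 0.05 there were also 0 of 10, against 9.79% of all genes in both directions and 1.83% for lower values in LΔRbfox2. Those were 1102 genes higher and 254 lower in LΔRbfox2, and 829 higher and 338 lower with upper-quartile factors. The values of the genotypes overlapped for all 10 genes, while they did not overlap for 2.28% of all genes. The log2 fold change lay under 0 for 10 of 10 clock genes, where 51.6% of all genes lay under 0. Because several of these genes vary together from liver to liver, the 10 signs are not separate observations. The median log2 fold change was −0.25 for the positive arm (3 genes), −0.64 for the negative arm with Dbp (7 genes) and −0.47 for all 10 genes, against −0.015 for all genes tested. Without LWT replicate 4 the median was −0.41 for the positive arm and −0.28 for the negative arm with Dbp.

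**Figure D1:**
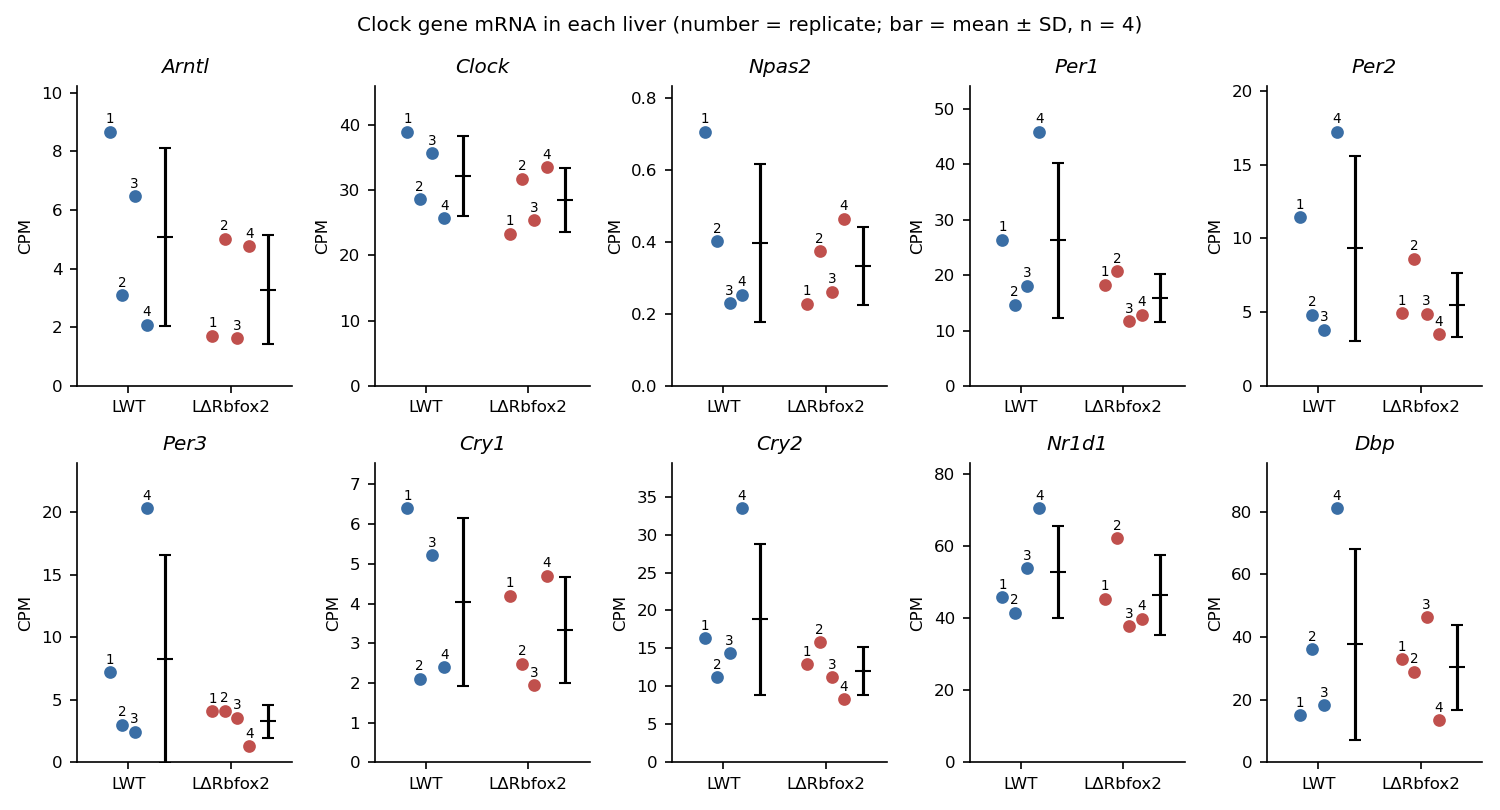
CPM (linear axes from 0) of each clock gene in LWT and LΔRbfox2 livers, 1 point per liver with its replicate number, and the mean ± SD (n = 4) as a black bar. Every gene overlaps between genotypes, and LWT replicate 4 gives the highest of the 8 values for Per1, Per2, Per3, Cry2, Nr1d1 and Dbp.

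Arntl (ENSMUSG00000055116, GRCm38 chromosome 7, 113207465 to 113314126, plus strand) encodes the essential positive factor BMAL1. It was at 8.67, 3.09, 6.47 and 2.10 CPM in LWT livers 1 to 4 and at 1.71, 5.03, 1.63 and 4.77 CPM in LΔRbfox2 livers 1 to 4. Each genotype thus held both high and low livers, and the highest LΔRbfox2 value lay above 2 of the LWT values. The mean was 5.08 ± 3.04 CPM (SD, n = 4) in LWT and 3.28 ± 1.87 CPM (SD, n = 4) in LΔRbfox2, for a log2 fold change of −0.62 ± 0.53 (limma-voom standard error) with a 95% interval of −1.80 to 0.56 (edgeR adjusted P = 0.620). Without LWT replicate 1, the highest liver, the log2 fold change was −0.27.

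Clock (ENSMUSG00000029238, chromosome 5, 76209868 to 76304792, minus strand), which encodes the partner of BMAL1, had a much narrower range. It was at 39.0, 28.6, 35.7 and 25.7 CPM in LWT and at 23.3, 31.8, 25.4 and 33.6 CPM in LΔRbfox2 livers, again interleaved between genotypes. The highest value was 1.67 times the lowest, against 5.33 times for Arntl. The log2 fold change was −0.18 ± 0.20 (limma-voom standard error) with a 95% interval of −0.61 to 0.26 (edgeR adjusted P = 0.691), and it was −0.099 without LWT replicate 1. Npas2 (ENSMUSG00000026077, chromosome 1, 39193731 to 39363236, plus strand) rested on few reads, with 27, 20, 11 and 11 counts in LWT and 10, 24, 9 and 15 counts in LΔRbfox2 livers. Its log2 fold change was −0.25 ± 0.42 (limma-voom standard error, edgeR adjusted P = 0.802), and it turned to 0.15 without LWT replicate 1, the liver with the most Npas2 reads.

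The Period genes encode the proteins that, in complex with the cryptochromes, shut the positive arm off. Per1 (ENSMUSG00000020893, chromosome 11, 69095217 to 69109960, plus strand) was at 26.4, 14.7, 18.1 and 45.9 CPM in LWT and at 18.3, 20.7, 11.7 and 12.9 CPM in LΔRbfox2 livers. Per2 (ENSMUSG00000055866, chromosome 1, 91415982 to 91459324, minus strand) was at 11.4, 4.82, 3.81 and 17.2 CPM in LWT and at 4.93, 8.62, 4.89 and 3.5 CPM in LΔRbfox2 livers. For both genes LWT replicates 4 and 1 were the highest of the 8 livers, and the other LWT livers lay among the LΔRbfox2 values. Per3 (ENSMUSG00000028957, chromosome 4, 151003652 to 151044665, minus strand), which is dispensable for rhythm generation, was at 7.18, 3.01, 2.45 and 20.3 CPM in LWT and at 4.11, 4.12, 3.58 and 1.3 CPM in LΔRbfox2 livers. Its highest value was 15.6 times its lowest, and these were LWT replicate 4 and LΔRbfox2 replicate 4.

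The log2 fold change of Per1 was −0.72 ± 0.35 (limma-voom standard error) with a 95% interval of −1.50 to 0.054 (edgeR adjusted P = 0.515). For Per2 it was −0.76 ± 0.49 (limma-voom standard error, edgeR adjusted P = 0.554). Per3 had the lowest log2 fold change of the 10 genes, −1.32 ± 0.66 (limma-voom standard error) with a 95% interval of −2.79 to 0.15 (edgeR adjusted P = 0.515), with 39.8% of the LWT mean left in LΔRbfox2 livers. The intervals are centred on the edgeR values, and limma-voom itself put Per3 at −0.87. With a correction for gene length and GC content Per1 was at −0.37. These differences rested largely on LWT replicate 4. Without that liver the log2 fold changes were −0.31 for Per1, −0.28 for Per2 and −0.35 for Per3. Without LΔRbfox2 replicate 4 the value for Per3 was −1.05.

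Cry1 (ENSMUSG00000020038, chromosome 10, 85131700 to 85185064, minus strand) encodes a repressor of CLOCK–BMAL1 and is known to peak later than the Per genes. It was at 6.40, 2.11, 5.22 and 2.39 CPM in LWT and at 4.20, 2.48, 1.95 and 4.71 CPM in LΔRbfox2 livers. High and low livers occurred in both genotypes, and the log2 fold change of −0.27 ± 0.42 (limma-voom standard error, edgeR adjusted P = 0.767) moved to 0.0030 without LWT replicate 1. Cry2 (ENSMUSG00000068742, chromosome 2, 92403646 to 92434043, minus strand), the second cryptochrome, was at 16.3, 11.2, 14.4 and 33.5 CPM in LWT and at 13.0, 15.9, 11.2 and 8.33 CPM in LΔRbfox2 livers. As with Per2 and Per3, LWT replicate 4 stood highest and LΔRbfox2 replicate 4 lowest. The log2 fold change of Cry2 was −0.64 ± 0.34 (limma-voom standard error) with a 95% interval of −1.39 to 0.11 (edgeR adjusted P = 0.527), −0.21 without LWT replicate 4 and −0.35 with the length and GC correction.

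Nr1d1 (ENSMUSG00000020889, chromosome 11, 98767932 to 98775333, minus strand) was at 45.8, 41.6, 53.9 and 70.6 CPM in LWT and at 45.5, 62.3, 37.8 and 39.9 CPM in LΔRbfox2 livers. This nuclear receptor links the main loop to Arntl, and its values lay close together, the highest being 1.87 times the lowest. The log2 fold change was −0.19 ± 0.22 (limma-voom standard error) with a 95% interval of −0.69 to 0.30 (edgeR adjusted P = 0.707), and it was −0.021 without LWT replicate 4. Antisense exons of Thra cover 8.55% of the exon bases of Nr1d1, and exons of D930015M05Rik on the other strand cover 4.67% of those of Cry2. Reads were aligned as first-strand libraries, but whether the counting used strand is not given in the sources used here, so reads in these stretches are uncertain.

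Dbp (ENSMUSG00000059824, chromosome 7, 45705088 to 45710203, plus strand) encodes a PAR bZIP factor that carries the rhythm of the clock to D-box elements of liver genes. It was at 15, 36.1, 18.3 and 81.1 CPM in LWT and at 33.0, 29.0, 46.3 and 13.4 CPM in LΔRbfox2 livers, so that the LΔRbfox2 values lay wholly within the LWT range except for replicate 4. The log2 fold change was −0.31 ± 0.53 (limma-voom standard error) with a 95% interval of −1.49 to 0.88 (edgeR adjusted P = 0.798). It changed sign without LWT replicate 4, to 0.39, and was −0.054 with the length and GC correction and −0.11 by limma-voom. Exons of Sphk2 on the other strand cover 18% of the exon bases of Dbp, with the same uncertainty.

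The highest of the 8 values came from LWT replicate 4 for 6 of the 10 genes (Per1, Per2, Per3, Cry2, Nr1d1 and Dbp) and from LWT replicate 1 for the other 4 (Arntl, Clock, Npas2 and Cry1). Over all genes tested these livers were highest for 15% and 19%, in the same order. The lowest value came from LΔRbfox2 replicate 4 for 4 genes (Per2, Per3, Cry2 and Dbp), from replicate 3 for 4 (Arntl, Per1, Cry1 and Nr1d1) and from replicate 1 for Clock and Npas2. Over all genes tested these livers were lowest for 14.3%, 21% and 7.76%. The SD of log2 CPM was larger among LWT than among LΔRbfox2 livers for 9 of the 9 clock genes with a mean of at least 1 CPM, against 39.1% of all such genes. Without LWT replicate 4 this was so for 4 of 9, against 39.5% of all genes.

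**Figure D2:**
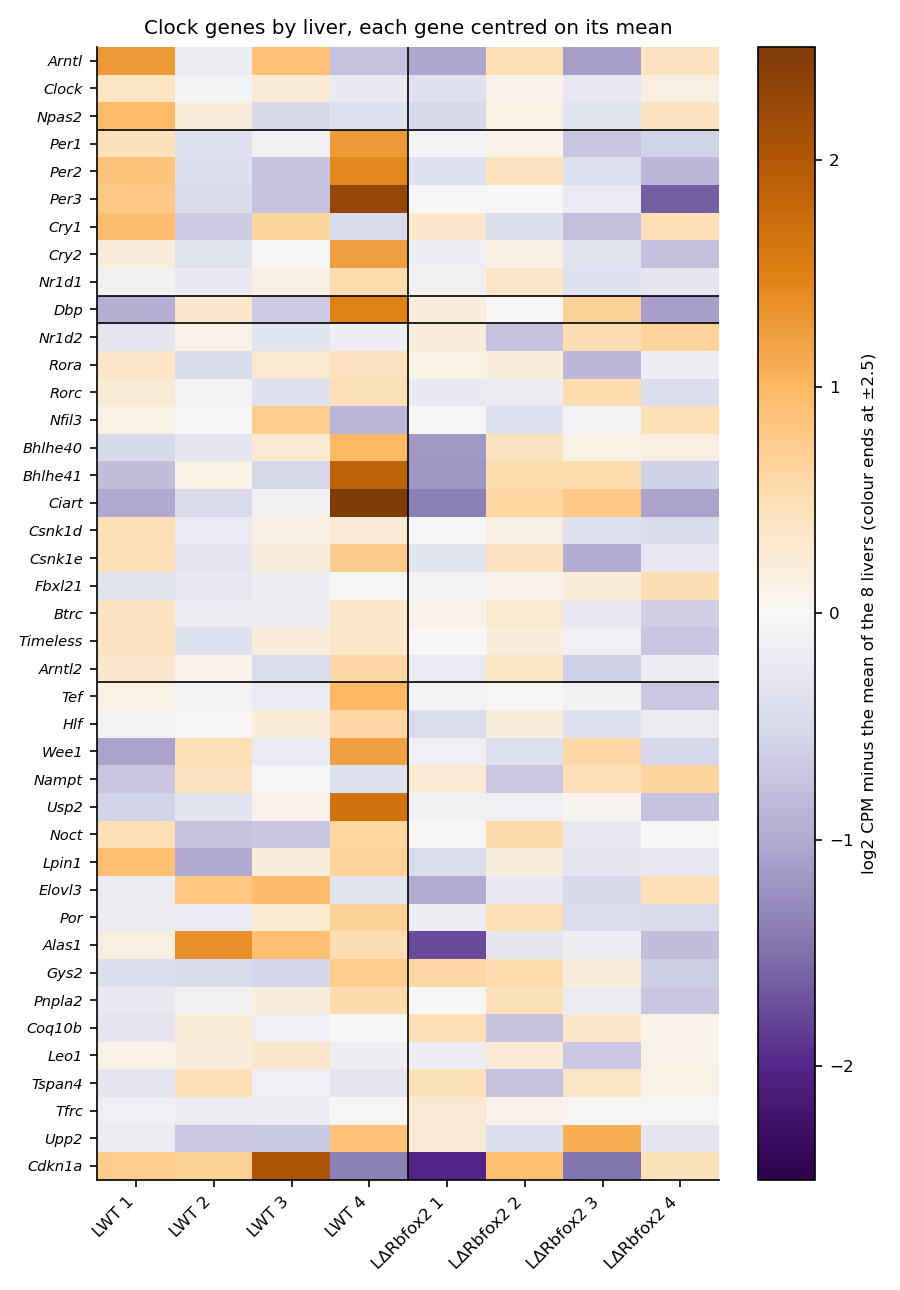
Log2 CPM of the clock genes and of the wider clock and output lists in each liver (columns), each gene (row) centred on its mean of the 8 livers, with lines between gene groups and between genotypes. LWT replicate 4 is at the upper end for the Per genes, Cry2, Ciart and Usp2. Arntl, Clock and Cry1 are high in LWT replicates 1 and 3 and, among LΔRbfox2 livers, in replicate 4. In LΔRbfox2 replicate 2 Arntl is slightly higher than in replicate 4 and Clock also lies above its mean. Cry1 is above its mean in LΔRbfox2 replicate 1 too.

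Clock genes were among the more variable mRNAs within a genotype. The SD of log2 CPM pooled over the genotypes was 1.12 for Per3, 0.94 for Dbp, 0.91 for Arntl and 0.82 for Per2, where the median over 11408 genes with a mean of at least 1 CPM was 0.36. These values stood at the 98.5, 97.5, 97.2 and 95.8 percentiles of all such genes. Cry1 (92.0), Per1 (83.8) and Cry2 (80.9) were also in the upper part, while Nr1d1 (44.2) and Clock (30.5) were not.

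Whether the clock genes varied together was examined over the 8 livers, with Pearson's r and Spearman's rho of log2 CPM for the 45 pairs and two-sided exact permutation tests, adjusted by the Benjamini–Hochberg method over the 45 pairs. By r, most of the genes could be placed in 2 blocks. One held Arntl and Clock, to which Cry1 and Npas2 stood closest (r of 0.637 to 0.673, not past the threshold), and the other held Per1, Per2, Per3, Cry2 and Nr1d1. Within the latter, r of Nr1d1 passed with Per1 and Cry2 but not with Per2 (r = 0.683) or Per3 (r = 0.653). An adjusted permutation P of at most 0.05 for Pearson's r was reached by 9 pairs, all positive, of which 3 also reached it for rho. The share among pairs of other genes was not computed, so this covariation is not shown to be particular to clock genes.

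**Figure D3:**
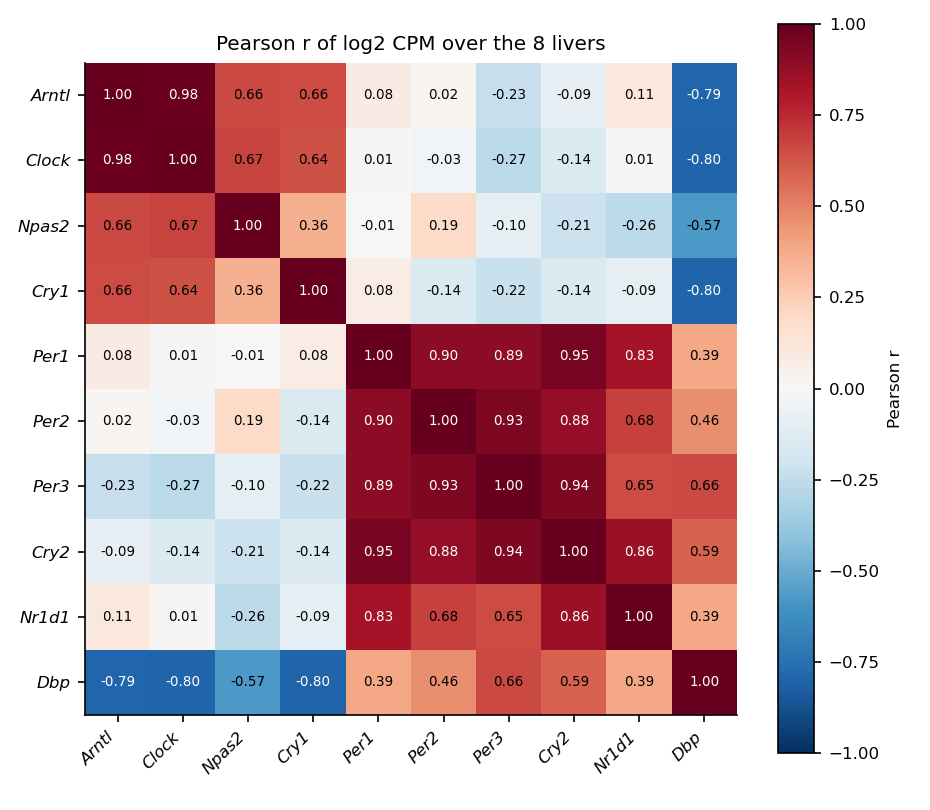
Pearson's r of log2 CPM between each pair of the 10 clock genes over the 8 livers (colour and printed value), with genes ordered by block. Arntl and Clock form one red square (0.98) and Per1, Per2, Per3, Cry2 and Nr1d1 another (0.65 to 0.95), and Dbp is negative with Arntl, Clock and Cry1 (−0.79 to −0.80).

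Arntl and Clock, whose proteins form the activating dimer, had r = 0.983 (adjusted exact permutation P = 0.00335) and rho = 0.952 (adjusted exact permutation P = 0.0171), and r was 0.988 without the 2 livers farthest from the median of Arntl. Per1 and Cry2 had r = 0.953 (adjusted exact permutation P = 0.00856) and rho = 0.952 (adjusted exact permutation P = 0.0171), with r = 0.922 without the 2 farthest livers. Per2 and Per3 had r = 0.932 (adjusted exact permutation P = 0.00112) and ranked the 8 livers in the same order (rho = 1.0, adjusted exact permutation P = 0.00223). Without LWT replicates 1 and 4, the livers farthest out, r of Per2 and Per3 was 0.741.

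Another 6 pairs passed by r alone, and the adjusted P values that follow are for r and then for rho. Among Per1 and the other genes these were Per1 with Per2 (r = 0.897, rho = 0.833, adjusted exact permutation P = 0.0175 and 0.0692), and Per1 with Per3 (r = 0.893, rho = 0.833, adjusted exact permutation P = 0.0243 and 0.0692), as well as Per1 with Nr1d1 (r = 0.831, rho = 0.881, adjusted exact permutation P = 0.0443 and 0.0652). Cry2 passed with 3 more genes, in the pairs Per2 with Cry2 (r = 0.882, rho = 0.833, adjusted exact permutation P = 0.0175 and 0.0692), Per3 with Cry2 (r = 0.935, rho = 0.833, adjusted exact permutation P = 0.0175 and 0.0692) and Cry2 with Nr1d1 (r = 0.860, rho = 0.905, adjusted exact permutation P = 0.0175 and 0.0513). Without the 2 farthest livers, r was 0.870, 0.906, 0.519, 0.663, 0.526 and 0.764 in the same order, so the relations of Per1 with Nr1d1 and of Per3 with Cry2 rest in good part on those livers. Taken as deviations from the genotype mean, all 9 pairs kept r between 0.824 and 0.981, but 0 of the 45 pairs passed when livers were exchanged within genotypes only (smallest adjusted permutation P = 0.0781).

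Dbp ran against Arntl (r = −0.790, rho = −0.738), Clock (r = −0.799, rho = −0.762) and Cry1 (r = −0.797, rho = −0.833). The unadjusted exact permutation P for r was 0.0219, 0.0191 and 0.0220, and the adjusted one was 0.0827 for each, so these relations did not pass. Without the 2 farthest livers r was −0.713, −0.901 and −0.720, and on deviations from the genotype mean −0.874, −0.882 and −0.821. The ratio of Dbp to Arntl in CPM was 1.73, 11.7, 2.83 and 38.7 in LWT livers 1 to 4 and 19.2, 5.76, 28.4 and 2.81 in LΔRbfox2 livers 1 to 4. Livers with a low ratio and livers with a high one occurred in both genotypes. Between Arntl and the Per genes r stayed between −0.234 and 0.080.

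**Figure D4:**
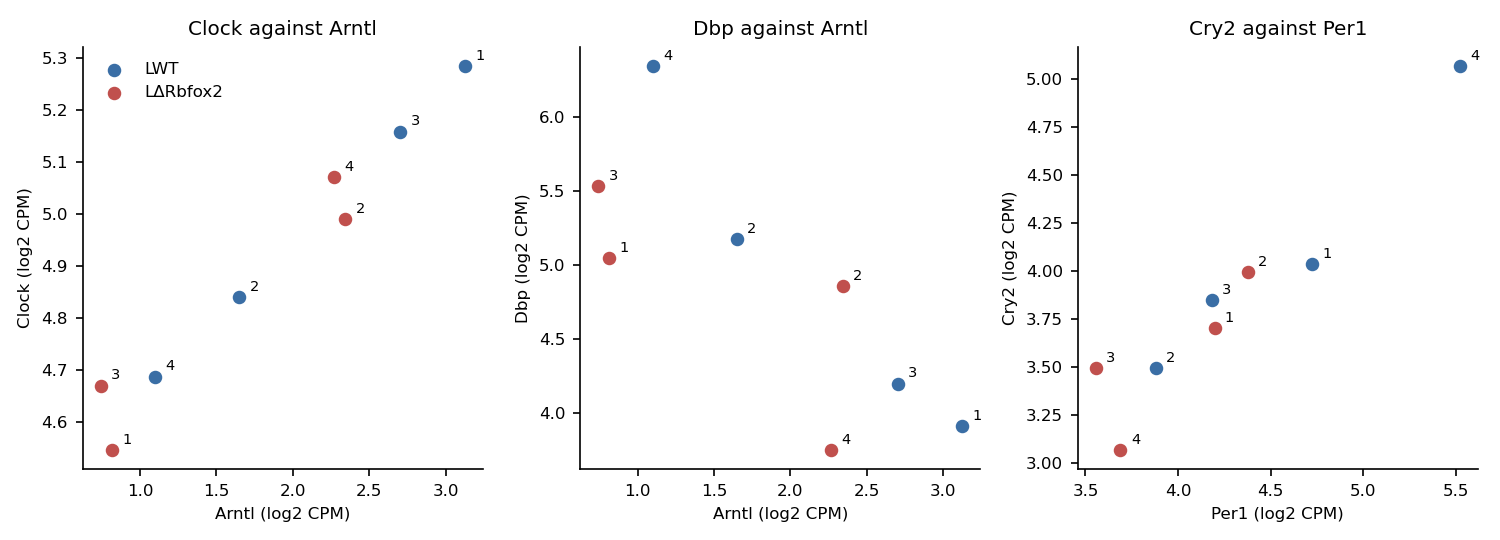
Log2 CPM of Clock against Arntl, of Dbp against Arntl and of Cry2 against Per1, 1 point per liver with its replicate number, LWT in blue and LΔRbfox2 in red. Both genotypes lie along the same line for Clock and Arntl (r = 0.983), Dbp runs down as Arntl goes up (r = −0.790), and LWT replicate 4 is the uppermost point for Cry2 and Per1.

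The first principal component over all genes took up 54.1% of the variation between livers, and the relation of the clock genes to it was added after their values had been seen. Over 10 relations, r with this component was −0.892 for Per1, −0.893 for Per2, −0.794 for Per3 and −0.838 for Cry2, with adjusted exact permutation P values of 0.00422, 0.0118, 0.0211 and 0.00422. The rank correlation was −0.929, −0.810, −0.810 and −0.976 in the same order, and r without the 2 farthest livers −0.917, −0.767, −0.572 and −0.913. On deviations from the genotype mean r was −0.855, −0.877, −0.741 and −0.786, and with livers exchanged within genotypes only, 0 of the 10 relations passed (adjusted permutation P of 0.0868 for Per1, Per2 and Cry2 and 0.142 for Per3). Nr1d1 (r = −0.765, rho = −0.833, adjusted exact permutation P = 0.0621 for r and 0.0436 for rho) passed by rho only. Arntl (r = −0.350, adjusted exact permutation P = 0.627) and Dbp (r = −0.168, adjusted exact permutation P = 0.710) did not pass. With 54.1% of the variation on this component, many other genes may relate to it as strongly. Their share was not computed, so these relations are not shown to be particular to clock genes. The part of this component in the covariation of the Per and Cry2 mRNAs was not tested.

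RefSeq promoter sequence of build GRCm38.p6 was searched for the elements through which clock proteins act, in the 250 bases before each start site and on both strands. The words searched were the E-box CACGTG, the E′-box CACGTT, the D-box TTATGTAA or TTACGTAA and the core of the REV-ERB/ROR element TAGGTCA or TGGGTCA, and no matches overlapped in these windows. Windows were at hand for 9 of the 10 genes (13 windows), with no entry for Per2. An E-box lay in 2 of the 13 windows, of Per1 and Cry1, and in 6.02% of all 32851 windows. The second window of Per1 held no E-box. An E′-box lay in 3 of the 13 windows, of Cry1, Cry2 and Nr1d1, and in 3.85% of all windows. The D-box, the element bound by DBP, was found in 1 of the 13 windows, in 2 copies in Per3, and in 0.931% of all windows. The REV-ERB/ROR core lay in 0 of the 13 windows and in 5.38% of all windows. Of the windows with a match, those below belong to 4 genes of the block that varied together and to Cry1, which did not join it, and the capitals mark the matched words (the E′-box reads AACGTG where it lies on the opposite strand).
Per1, chr11:69098699-69098948, plus strand: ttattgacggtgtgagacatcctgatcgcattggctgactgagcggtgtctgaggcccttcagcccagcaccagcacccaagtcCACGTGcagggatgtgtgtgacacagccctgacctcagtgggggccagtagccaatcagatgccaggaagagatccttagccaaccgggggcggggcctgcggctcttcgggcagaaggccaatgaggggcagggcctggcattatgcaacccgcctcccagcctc
Per3, chr4:151044666-151044915, minus strand: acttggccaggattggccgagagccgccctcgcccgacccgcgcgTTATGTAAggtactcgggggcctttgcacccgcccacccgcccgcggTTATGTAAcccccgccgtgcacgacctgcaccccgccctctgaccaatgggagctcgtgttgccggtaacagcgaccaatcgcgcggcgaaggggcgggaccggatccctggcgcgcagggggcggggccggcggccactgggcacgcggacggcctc
Cry2, chr2:92434070-92434319, minus strand: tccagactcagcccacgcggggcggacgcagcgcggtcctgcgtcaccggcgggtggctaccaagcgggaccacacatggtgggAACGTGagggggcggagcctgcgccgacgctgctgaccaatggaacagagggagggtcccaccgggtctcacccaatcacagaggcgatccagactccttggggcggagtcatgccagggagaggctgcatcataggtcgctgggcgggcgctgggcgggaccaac
Nr1d1, chr11:98775378-98775627, minus strand: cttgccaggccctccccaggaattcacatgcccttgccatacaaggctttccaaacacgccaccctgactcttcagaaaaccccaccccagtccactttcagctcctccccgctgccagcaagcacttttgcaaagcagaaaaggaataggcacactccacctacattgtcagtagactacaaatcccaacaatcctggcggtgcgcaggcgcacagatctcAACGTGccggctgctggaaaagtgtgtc
Cry1, chr10:85185055-85185304, minus strand: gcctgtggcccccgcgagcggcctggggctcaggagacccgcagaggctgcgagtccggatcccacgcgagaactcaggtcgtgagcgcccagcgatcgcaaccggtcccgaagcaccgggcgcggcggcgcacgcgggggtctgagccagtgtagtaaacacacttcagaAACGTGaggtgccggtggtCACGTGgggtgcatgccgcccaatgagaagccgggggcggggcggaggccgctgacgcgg
The E-box of Per1 began 166 bases before the start site and that of Cry1 60 bases before it. The E′-boxes began 79 bases before the start in Cry1, 166 in Cry2 and 28 in Nr1d1, and the D-boxes of Per3 began 205 and 158 bases before it. The windows of Arntl, Clock, Npas2 and Dbp held none of these words, which says only that the letters are not in these windows.

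Genes of the second loop and other regulators of the clock (15 listed, with Rorb at 0 counts in every liver) gave 14 tested genes, of which 0 passed, 11 lay under 0 and 3 above. Their median log2 fold change was −0.26, and −0.038 without LWT replicate 4. The smallest unadjusted P values belonged to the kinases that phosphorylate PER proteins, Csnk1d (log2 fold change −0.34, edgeR adjusted P = 0.548) and Csnk1e (−0.52, edgeR adjusted P = 0.554), followed by Fbxl21 (0.41, edgeR adjusted P = 0.557), which encodes a ubiquitin ligase subunit that acts on cryptochromes. Nr1d2 and Ciart are named after their values were seen. Nr1d2, the paralogue of Nr1d1, was at 52.3, 69.5, 51.6 and 59.2 CPM in LWT and at 73.9, 38.3, 92.0 and 102 CPM in LΔRbfox2 livers (log2 fold change 0.40, edgeR adjusted P = 0.577). Ciart, a repressor of CLOCK–BMAL1, was at 2.64, 3.82, 4.99 and 32.6 CPM in LWT and at 2.01, 8.20, 9.22 and 2.54 CPM in LΔRbfox2 livers. Its log2 fold change of −1.0 (edgeR adjusted P = 0.616) became 0.53 without LWT replicate 4.

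**Figure D5:**
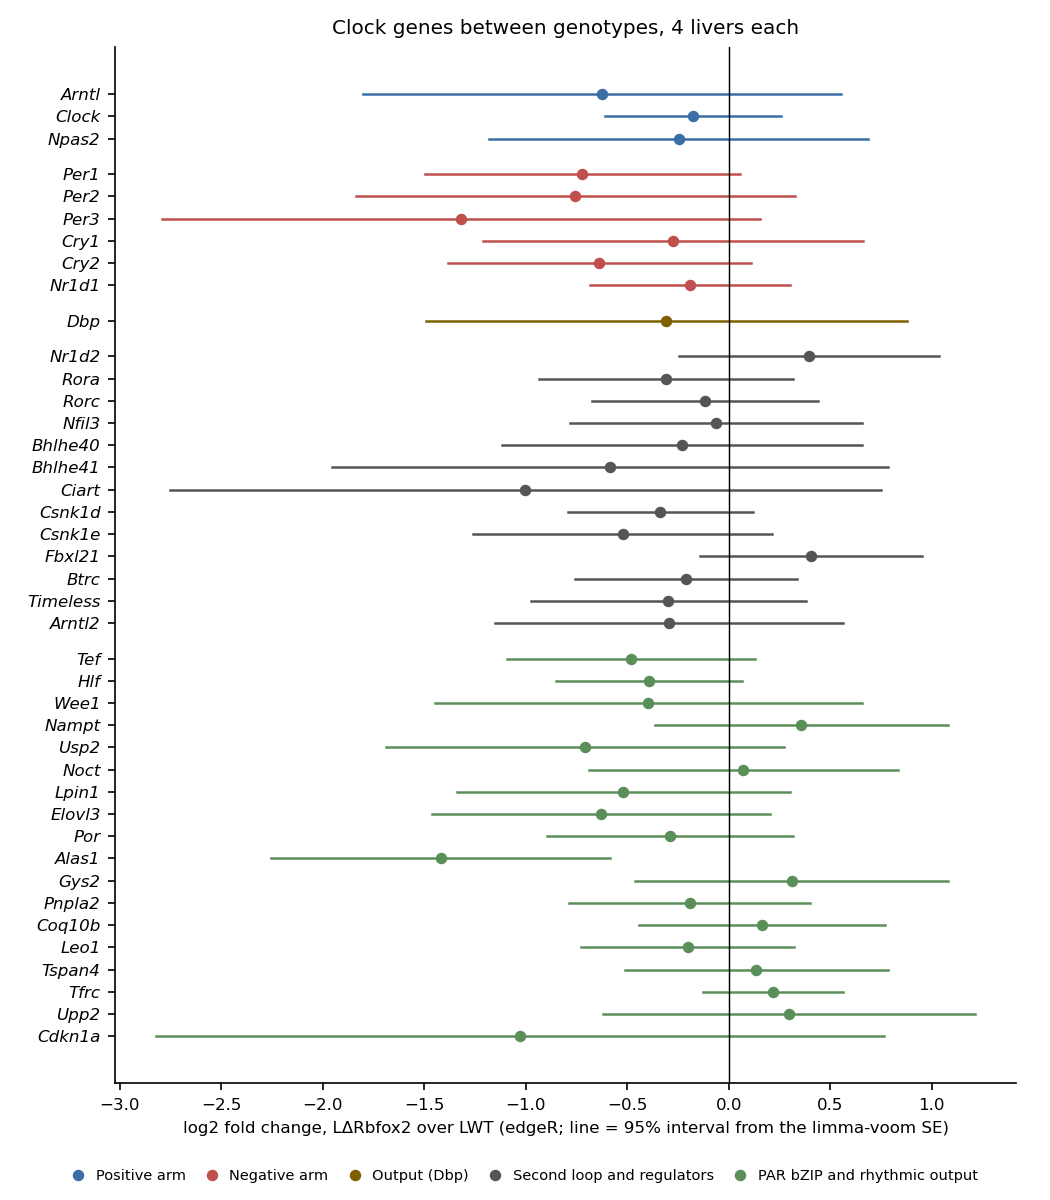
Log2 fold change of LΔRbfox2 over LWT livers from edgeR (points) for the 10 clock genes and tested genes of the wider clock and output lists, with 95% intervals from the limma-voom standard error (lines, with 4 livers a genotype). Every interval of the 10 clock genes crosses 0, and of all genes drawn only that of Alas1 (−2.25 to −0.59) does not.

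Among rhythmic output genes of liver, including the PAR bZIP relatives of Dbp, 18 of 18 were tested, 0 passed, 11 lay under 0 and 7 above, and the median log2 fold change was −0.25. Without LWT replicate 4 this median was 0.015. Alas1, which encodes the rate-limiting enzyme of haem synthesis, was at 380, 866, 631 and 482 CPM in LWT and at 100, 276, 309 and 196 CPM in LΔRbfox2 livers. No LΔRbfox2 value reached the lowest LWT value, and the genotypes did not overlap for 2.28% of all genes tested. A two-sided exact permutation test gave P = 0.0286, the only value it can give without overlap at this group size. The log2 fold change of Alas1 was −1.42 ± 0.37 (limma-voom standard error, edgeR adjusted P = 0.504). The PAR bZIP genes Hlf (−0.39, edgeR adjusted P = 0.527) and Tef (−0.48, edgeR adjusted P = 0.542) and the fatty acid elongase Elovl3 (−0.63, edgeR adjusted P = 0.547) followed in order of unadjusted P. Tef was at 78.7, 68.5, 62.5 and 141 CPM in LWT and at 68.3, 71.4, 67.3 and 44.1 CPM in LΔRbfox2 livers, again with replicate 4 at the upper end in LWT and at the lower end in LΔRbfox2. Its log2 fold change was −0.15 without LWT replicate 4 and −0.22 with the length and GC correction.

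Lists of genes that respond to signals known to act on the liver clock were examined beside it. Of 7 glucocorticoid-induced genes 6 lay under 0 and 0 passed, with a median log2 fold change of −0.28. In this list Klf9, a glucocorticoid-responsive factor, was at 94.9, 80.0, 105 and 98.9 CPM in LWT livers. In LΔRbfox2 livers Klf9 was at 51.5, 76.1, 65.8 and 79.9 CPM (log2 fold change −0.47, edgeR adjusted P = 0.504). These values did not overlap but nearly touched, and 2.28% of all genes tested did not overlap. Fkbp5 had a log2 fold change of −0.45 (edgeR adjusted P = 0.523), while Tsc22d3 lay above 0, at 0.385 (edgeR adjusted P = 0.554). Among 9 genes of temperature and heat shock 0 passed (median −0.12, and 0.18 without LWT replicate 1), and among 10 genes of the fasting response 0 passed (median −0.059). Of the 5 Kupffer cell markers 4 lay under 0 and 1, Marco, above it (log2 fold change 0.476, edgeR adjusted P = 0.721). Among them Clec4f (log2 fold change −0.73, edgeR adjusted P = 0.504) did not overlap between genotypes, as was so for 2.28% of all genes tested. Cyp3a11 of hepatocytes had a log2 fold change of 1.06 (edgeR adjusted P = 0.504). The median log2 fold change was 0.35 for hepatocyte markers, −0.26 for Kupffer cell markers, −0.19 for endothelial markers and −0.004 for stellate cell markers, with 0 genes past the threshold in each. It was 0.37 for cholangiocyte markers (3 of 4 tested) and 0.12 for lymphocyte and neutrophil markers (2 of 6 tested), also with 0 past the threshold.

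Outside the lists, and among 11319 genes with a mean of at least 1 CPM, the genes whose log2 CPM followed Arntl most closely over the 8 livers were Ppp1r3b (r = 0.975), Ypel2 (0.949), Slc45a3 (0.931), Kdm6a (0.907) and Ino80e (0.903). Those that ran most against it were Rpa2 (r = −0.947), Slc25a11 (−0.915), Emc9 (−0.902), Fgfrl1 (−0.890) and Zbtb11os1 (−0.885). Dbp was followed by Acy3 (r = 0.946), Gpr146 (0.941), Gipc1 (0.940), Aldh4a1 (0.927) and Gpd1l (0.911) and opposed by Ubfd1 (−0.943), Gm12346 (−0.939), Net1 (−0.912), Ap1s2 (−0.904) and Dtx4 (−0.903). These are the extremes of many correlations over the same 8 libraries and are given as a description. Adjusted P values from edgeR for the genotype comparison of these 20 genes were 0.544 or more.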

How the data were processed

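Poly(A) RNA from 8 livers (4 LWT, 4 LΔRbfox2) was sequenced as 100 bp paired-end reads. The authors aligned them to GRCm38 with TopHat2 2.0.11 as first-strand libraries and deposited featureCounts counts per gene, whole numbers without normalization. The strand and multi-mapping settings of featureCounts are not given in the sources used here. Each column was matched to its liver by name (0 columns unmatched). Symbols and positions came from GENCODE M21 (45229 of 46078 identifiers). Total counts per liver (37482458 to 56177588) bear on counting error and not on the spread between livers.

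Counts were analysed with edgeR 4.0.16 in R 4.3.3: filterByExpr defaults (minimum count 10, minimum total 15), TMM factors, and glmQLFit and glmQLFTest with genotype as the only term. P values were adjusted by Benjamini–Hochberg over 13856 genes (threshold 0.05). Standard errors came from limma-voom 3.58.1, and log2 CPM used a prior count of 2. Permutation tests were exact and two-sided (scipy 1.17.1). The tests were tried on simulated counts first. Nothing says that the livers came from separate litters or cages, and P values measure the spread between these animals.

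The genes and lists were chosen with earlier results of these data known. Genes named are the 10 clock genes, at most 4 of each list by smallest unadjusted P, the 5 most and 5 least like Arntl and Dbp, Rbfox2, and genes said to be named after their values were seen or set apart in 1 liver. Alternatives were DESeq2 1.42.0 (size factors and test), upper-quartile factors, limma-voom, other filters, robust estimation, a gene length and GC correction (lowess span 0.3), the replicate block and each liver left out. No 2 libraries of a genotype were copies (smallest chi-square per degree of freedom 105.6). Splicing and other diets were not analysed here. Of the tested genes in the clock regulator list, 1 is counted with its list but is not reported here singly.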

Additional observations from a re-analysis of the deposited data

Results flagged for a closer look

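Among 84 groups of 4 livers examined (both genotypes, clock genes and wider clock and output lists), 5 held a value set apart from the other 3 livers by most of the range (Dixon's test), where chance gives 4.2 (1 in 20). None of the 10 clock genes was among them. The groups were not chosen as independent, and 4 of the 5 values come from LWT replicate 4.

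In LWT replicate 4, Ciart was at 32.6 CPM against 4.99 CPM in the nearest LWT liver, and Bhlhe41, a repressor of the clock, was at 6.17 CPM against 1.81 CPM. In the same liver Usp2, a rhythmic deubiquitinase, was at 44.1 CPM against 14.7 CPM, and Gys2, the liver glycogen synthase, was at 221 CPM against 100.2 CPM. Tef was at 44.1 CPM in LΔRbfox2 replicate 4 against 67.3 CPM in the nearest LΔRbfox2 liver.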

How the results depend on the processing

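The 10 clock genes gave 0 calls in each of 17 alternatives. Over all genes, 9 passed with the DESeq2 test and 0 in the other 16, with between 335 (replicate block) and 3475 (without LΔRbfox2 replicate 2) at an unadjusted P under 0.05. At that level the clock genes gave 2 with DESeq2 and with no filter, 3 without LWT replicate 2 or 3, and 1 without LΔRbfox2 replicate 2, all of them Per1, Per2, Per3 or Cry2 and all lower in LΔRbfox2. With each liver left out in turn, log2 fold changes ran from −0.435 to 0.145 for Npas2 and from −0.482 to 0.003 for Cry1 (above 0 without LWT replicate 1), and from −0.602 to 0.394 for Dbp, −1.369 to 0.526 for Ciart, −0.87 to 0.363 for Bhlhe41 and −0.962 to 0.050 for Usp2 (above 0 without LWT replicate 4). The causes were not tested. Nr1d1 ran from −0.37 to −0.021, Tef from −0.61 to −0.155, the median of the temperature list from −0.124 to 0.178, Per3 ran from −1.62 to −0.35, Per1 from −0.91 to −0.31, Arntl from −0.92 to −0.27, and the median of the rhythmic output list from −0.375 to 0.015. With the gene length and GC correction, log2 fold changes were −0.368 for Per1, −0.348 for Cry2, −0.077 for Nr1d1, −0.054 for Dbp, −0.136 for Npas2, −0.225 for Tef, −0.165 for Csnk1d, −0.255 for Csnk1e and −0.244 for Fkbp5, and with limma-voom −0.875 for Per3, −0.108 for Dbp and −0.494 for Ciart. Rbfox2 passed with the DESeq2 test only (log2 fold change −1.82, adjusted P = 2.96e-04, against 0.0834 to 0.91 elsewhere). The correlation of Per1 with Nr1d1 did not pass with DESeq2 size factors (r = 0.815, adjusted permutation P = 0.0538). Npas2 had too few reads for the stricter filter. With the replicate block, which pairs different animals by number, Per3 was at −0.77 and Dbp at −0.019 (adjusted P = 0.831 and 0.994 from edgeR), and it changed no call. Same-numbered livers correlated at 0.127, −0.613, 0.122 and −0.514 in their deviations. With 4 livers a genotype the 95% intervals stayed wide, such as −1.80 to 0.56 for Arntl and −1.49 to 0.88 for Dbp.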
